A study of Homo sapiens with 16 samples.

Results

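The subject is how the RNA recovered with tagged ALKBH5 differed from the RNA recovered with tagged RBM33, gene by gene. The study compared RNA immunoprecipitates (RIP-seq), in which RNA bound to a tagged protein is sequenced beside the input RNA of the same lysate, in cells labelled UM-SCC-1, an established head and neck squamous carcinoma line. Cells carried a lentiviral Strep-Vec (empty vector), Strep-ALKBH5 or Strep-RBM33 construct and were selected with puromycin, and the Strep tag was captured on StrepTactin-XT. The 16 libraries form 6 groups. Strep-Vec and Strep-ALKBH5 have 3 pull-downs and 3 inputs each, and Strep-RBM33 has 2 of each. Both baits are overexpressed, and arms with RBM33 siRNA were not analysed here. The values used are 2 deposited tables of the authors' own comparisons, 1 per bait. Both are named siCtrl, a treatment that no library title gives. Both list the same 16324 genes, and all were joined by gene identifier. Leaving out the bait genes, 16322 genes remained. For each, the RBM33 log2 fold change was subtracted from the ALKBH5 log2 fold change, so that a positive difference means a higher value in the ALKBH5 table. No expression level, change or call was used to choose the genes.

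Adenosines of mRNA and of many noncoding RNAs can carry a methyl group at position N6 (m6A), which a nuclear methyltransferase complex writes and reader proteins bind. ALKBH5 is a mostly nuclear enzyme of the AlkB family that removes this group. RBM33 is an RNA-binding protein, and the design of the study asks whether ALKBH5 and RBM33 share most of their binding sites and whether ALKBH5 needs RBM33 to reach its substrates. A difference between the deposited values shows which RNAs had unequal log2 fold changes for the 2 proteins. Whether the pull-downs or the inputs differed cannot be told from the fold changes alone.

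Neither table holds a value per library, so the depth of the libraries is unknown here and no test of a difference over libraries could be made. Each difference is given with an implied standard error: in each table the size of the log2 fold change divided by the square root of its F statistic, combined as the root of the sum of squares. This takes F as having 1 numerator degree of freedom and the fits as sharing no library, and with 2 to 3 libraries a group it is itself imprecise. Neither the contrast nor its direction is given with the tables, and signs are printed as deposited. If a table sets the pull-down of its bait against the matching input, the vector libraries entered neither, and binding of RNA to the beads was not subtracted. Whether replicates were grown separately is not stated, and the p-values in the tables may reflect technical spread only.

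The labelled cell type was checked against its markers. Of 18 squamous epithelial markers, 6 had a row, among them CDH1, ITGA6, ITGB4, DSC3 and EGFR; KRT5, KRT14 and TP63 were not among the rows analysed here. Of 14 markers of neurofilament-expressing embryonic kidney lines, 10 had a row, and of 10 fibroblast markers, 4. NEFL and NEFM, which encode neurofilament subunits, had mean average log2 CPM of 7.76 and 7.45 over the authors' deposited tables, against 5.25 for the desmosomal cadherin DSC3 and 4.52 for EGFR. The median level was 3.28 over the 10 embryonic kidney line markers with a row, so NEFL and NEFM lay above most of their list. It was 2.73 over the 6 squamous ones. These levels are not per length. The rows thus do not settle that the cells are squamous, and the labelled line is given as the labels name it. Each bait mRNA had its higher value with its own protein as bait, but RBM33 mRNA was called positive with both. The authors' deposited tables list ALKBH5 mRNA at 1.28 with ALKBH5 as bait (edgeR, adjusted p = 0.00158) and at -0.21 with RBM33 (adjusted p = 0.245). They list RBM33 mRNA at 1.17 (edgeR, adjusted p = 7.1e-06) with ALKBH5 and at 3.41 (adjusted p = 5.14e-05) with RBM33, by the authors' deposited tables.

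Most genes differed little. The median difference over the 16322 genes was 0.06, with quartiles of -0.22 and 0.38, a standard deviation of 0.67 across genes and a range from -7.13 to 6.73. The difference was above 0 for 9142 genes (56%). It was smaller than 1 implied standard error for 9782 genes (59.9%), and the median implied standard error was 0.35. A difference of at least 1 was found for 1102 genes (6.75%) and of at most -1 for 596 (3.65%). When a difference also had to reach 2 implied standard errors, 486 genes (2.98%) stood at 1 or above and 166 (1.02%) at -1 or below. Without a minimum size, 1060 genes (6.49%) reached 2 implied standard errors on the positive side and 488 (2.99%) on the negative side. The plot of fold changes in both tables shows the cloud lying along the line of no difference.

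**Figure D1:**
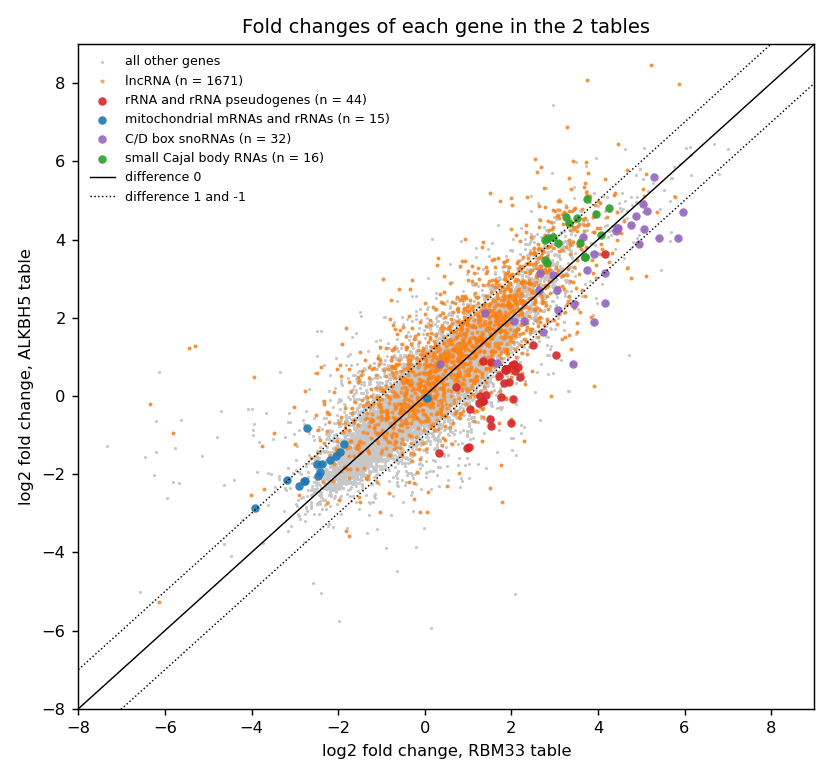
Each point is 1 of 16322 genes, with its log2 fold change in the RBM33 table on the x axis and in the ALKBH5 table on the y axis. The solid line marks equal values and the dotted lines differences of 1 and -1. Ribosomal RNA rows lie below the line of equal values, while small Cajal body RNAs and mitochondrial mRNAs and rRNAs lie mostly above it.

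Calls were taken at an adjusted p under 0.05 (edgeR). Of the authors' deposited tables, that of ALKBH5 called 4976 genes (30.5%) positive and 4745 (29.1%) negative, and that of RBM33 3924 (24%) and 4413 (27%). Both called 3508 genes positive and 3876 negative, and neither called 5650. A call in 1 table alone is no test of a difference: of the 1466 genes called positive for ALKBH5 only, 292 had a positive difference of at least 2 implied standard errors, and of the 416 called positive for RBM33 only, 101 had a negative one. Among genes called negative in 1 table only, 128 of 869 (ALKBH5) and 179 of 535 (RBM33) differed by that much.

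Only 2 genes (0.0123%) were called with opposite signs, both positive for ALKBH5 and negative for RBM33. TM2D1, a membrane protein known for binding amyloid beta peptide (chromosome 1, 61681046 to 61725423, hg38), stood at 0.44 (edgeR, adjusted p = 0.0132) with ALKBH5 and at -0.50 (adjusted p = 0.0233) with RBM33 by the authors' deposited tables, a difference of 0.94 ± 0.21 (implied standard error). ROBO3, a receptor of axon guidance (chromosome 11, 124865432 to 124881471), stood at 0.53 (edgeR, adjusted p = 0.0248) and -0.71 (adjusted p = 0.0405) in the authors' deposited tables, a difference of 1.24 ± 0.32. At an adjusted p under 0.01 in both tables neither was called. The reverse pattern, negative for ALKBH5 and positive for RBM33, was found in 0 genes by edgeR's adjusted p. At an unadjusted p under 0.05 in both tables the counts were 9 and 1.

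By annotated gene type, the difference ran from ribosomal RNA at the low end to small Cajal body RNA at the high end, as the box plot by gene type shows. The 13208 protein-coding genes had a median difference of 0.05 (quartiles -0.20 and 0.32). Long noncoding RNAs, 1671 genes, had a median of 0.36. Of them 369 (22.1%) differed by at least 1 and 105 (6.28%) by at most -1, against 6.75% and 3.65% of all genes. Their median implied standard error was 0.79. On the positive side 186 reached 2 implied standard errors and on the negative side 21, against 6.49% and 2.99% of all genes. Transcribed unprocessed pseudogenes (285, median 0.34) and transcribed unitary pseudogenes (27, median 0.53) had medians above 0 too. Processed pseudogenes, which are intronless copies of mRNAs, had a median of -0.24 over 513 genes. Of them 98 (19.1%) differed by at most -1 and 57 (11.1%) by at least 1. Their median implied standard error was 0.87, and 30 reached 2 implied standard errors on the negative side and 16 on the positive side. Reads of a pseudogene can be shared with its parent gene. Small nuclear RNAs had a median of -0.41 over 63 rows, with 14 above 0. Mitochondrial tRNAs had a median of -0.51 over 22 rows, with 5 above 0. The 90 small nucleolar RNAs had a median of 0.02. It turned to -0.23 when the RBM33 values were scaled to the spread of the ALKBH5 table and to -0.02 when the protein-coding median was subtracted. Among rows that overlap no other listed gene it was -0.55. Average log2 CPM also differed between the tables. Its median shift per gene, ALKBH5 minus RBM33, was 0.77 for rRNA, 0.85 for rRNA pseudogenes and 0.51 for mitochondrial tRNAs, whose differences were negative. For small Cajal body RNAs it was 0.61, and over all genes 0.01. Whether inputs or library composition differed between the baits was not tested.

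**Figure D2:**
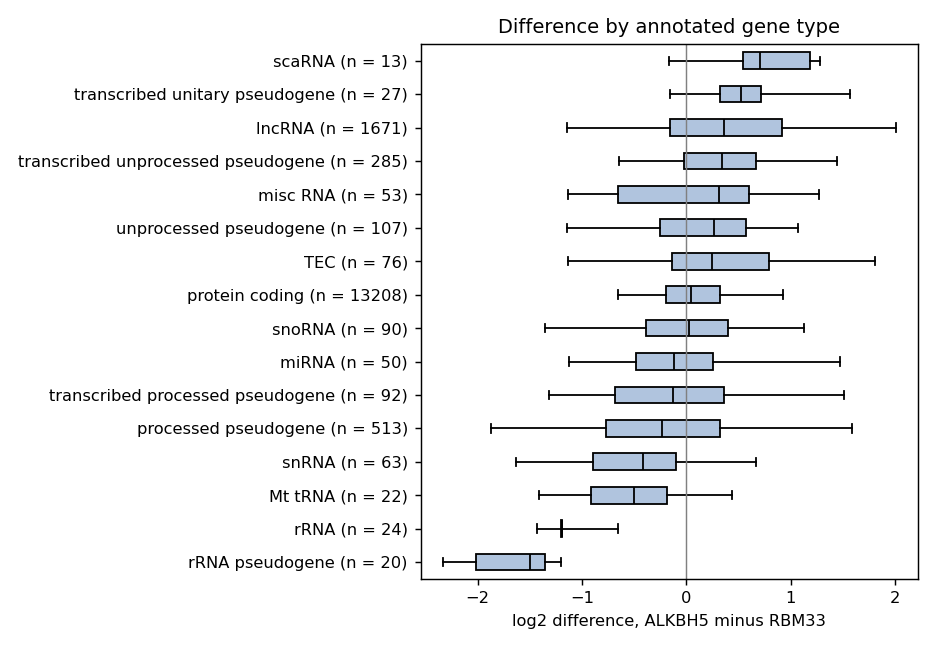
Boxes give the quartiles and median of the log2 difference (ALKBH5 table minus RBM33 table) for each gene type with at least 10 rows, and whiskers the 5th and 95th percentiles. Ribosomal RNA rows and their pseudogenes lie wholly below 0, and the box of small Cajal body RNA lies wholly above it.

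Ribosomal RNA, the structural RNA of ribosomes, had the lowest medians of the types with at least 10 rows, together with its pseudogenes. None of the 24 rRNA rows and none of the 20 rRNA pseudogene rows had a difference above 0; the medians were -1.19 and -1.50. On the negative side 2 of the 24 rRNA rows and 11 of the 20 pseudogene rows reached 2 implied standard errors, against 2.99% of all genes. The 5S copy RNA5S1 had -1.19 ± 0.64. In the authors' deposited tables the rRNA rows had median log2 fold changes of 0.68 for ALKBH5 and 1.87 for RBM33. These rows are near-identical copies that share reads, with quartiles of -1.20 and -1.19, so their number says nothing about repeat measurements. Some pseudogene rows had levels and differences near those of the 5S rows and may share their reads. RNA5SP145 (-1.38) and RNA5SP370 (-1.48) had mean average log2 CPM of 9.58 and 9.29, against 9.71 for RNA5S12. The pseudogene rows are thus no separate measurements either. The 5.8S rows spread more widely. RNA5-8SN2 had a difference of -0.45 ± 0.42 (implied standard error), within 2 implied standard errors of 0, while RNA5-8SP6, a pseudogene, had -2.29 ± 0.58. RNA5-8SP6 stood at -0.77 (edgeR, adjusted p = 0.121) for ALKBH5 and at 1.52 (adjusted p = 0.0104) for RBM33 in the authors' deposited tables. RNA5SP162, a 5S pseudogene listed with 44 bases, had a difference of -2.10 ± 0.72.

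Sequences of 4 microRNA genes are shown because they hold MIR3064, the widest difference among microRNA rows with a mean average log2 CPM of at least 1, and a close neighbour with a small one. MIR4707 (4.44 ± 2.31) and MIR4709 (3.22 ± 1.60) were wider but of lower abundance. The tables have 50 rows of type miRNA; 46 carry a miRNA symbol, and 41 of these matched a RefSeq entry (GRCh38.p14). Hairpins are given 5′ to 3′ with the mature arms in capitals, and mature sequences with the seed, bases 2 to 8, in capitals.
MIR3064 hairpin (chr17:64500774-64500839, minus strand): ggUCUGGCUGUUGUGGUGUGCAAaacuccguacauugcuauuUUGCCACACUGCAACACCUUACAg
hsa-miR-3064-5p: uCUGGCUGuuguggugugcaa
hsa-miR-3064-3p: uUGCCACAcugcaacaccuuaca
hsa-miR-5047 (MIR5047, minus strand): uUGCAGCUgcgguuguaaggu
MIR6516 hairpin (chr17:77089417-77089497, plus strand): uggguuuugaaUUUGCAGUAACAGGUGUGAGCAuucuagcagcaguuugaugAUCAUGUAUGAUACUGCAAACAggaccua
MIR1292 hairpin (chr20:2652777-2652842, plus strand): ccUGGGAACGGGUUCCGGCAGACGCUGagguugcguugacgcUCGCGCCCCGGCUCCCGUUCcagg

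MIR3064 and MIR5047 both lie inside DDX5, the gene of a DEAD-box RNA helicase, on the same strand. MIR3064 stood at 5.10 (edgeR, adjusted p = 1.46e-07) for ALKBH5 and at 2.44 (adjusted p = 0.000346) for RBM33 in the authors' deposited tables, a difference of 2.66 ± 0.54 (implied standard error). MIR5047, listed at chr17:64501214-64501313, stood at 3.88 and 3.62 in the authors' deposited tables, a difference of 0.26 ± 0.63, and the host DDX5 itself at 2.43 and 1.76, a difference of 0.66 ± 0.27. The hairpins shown lie within the host gene, so these rows may count fragments of DDX5 RNA as well as any microRNA precursor, which was not tested. MIR6516 overlaps SCARNA16, a small Cajal body RNA, and the long noncoding RNA SNHG20 on the same strand, and the differences were 1.03 ± 0.51, 0.83 ± 0.54 and 0.67 ± 0.39. SEC14L1 overlaps MIR6516 on that strand too and had a difference of -0.20. MIR1292 lies inside NOP56, which encodes a core protein of C/D box particles. Its difference of -1.02 ± 0.56 did not reach 2 implied standard errors, and that of NOP56 was -0.18 ± 0.22. Over all 50 rows the median was -0.12, with 16 above 0.

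Small guide RNAs of the nucleolus and the Cajal body separated by class. C/D box RNAs, which guide ribose methylation, had a median difference of -0.38 over 32 genes, with 7 above 0, 10 at or below -1 and 0 at or above 1. Small Cajal body RNAs, which guide modification of spliceosomal RNAs, had a median of 0.77 over 16 genes, with 14 above 0 and 7 at or above 1. H/ACA box RNAs, which guide pseudouridylation, had a median of 0.13 over 51 genes that turned to -0.088 when the RBM33 values were scaled. These counts are of rows: SCARNA4 (-0.17) and SNORA17B (0.83) each have 2 rows with the same difference. SNORD3D has 2 rows, at -0.15 and -0.16. All 3 classes had positive medians for both baits. In the authors' deposited tables the medians for ALKBH5 and RBM33 were 3.18 and 3.91 for C/D box, 4.05 and 3.43 for small Cajal body and 4.70 and 4.49 for H/ACA box RNAs. SNORD26 stood at 4.03 for ALKBH5 and 5.85 for RBM33 per the authors' deposited tables, a difference of -1.81 ± 0.61 (implied standard error). SNORD91B, at 1.90 and 3.92 in the authors' deposited tables, had a difference of -2.02 ± 0.84. At the other end, SCARNA21 stood at 4.59 and 3.27 in the authors' deposited tables, a difference of 1.32 ± 0.55, and SNORA47 at 6.31 and 4.63, a difference of 1.69 ± 0.68. On the negative side 3 of 32 C/D box RNAs and 1 of 51 H/ACA box RNAs passed 2 implied standard errors, against 2.99% of all genes. On the positive side 3 of 16 small Cajal body RNAs and 3 of 51 H/ACA box RNAs did, against 6.49% of all genes.

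These RNAs are mostly cut from introns of host genes, and the medians of the hosts lay near 0. C/D box RNAs lay below their same-strand host in 21 of 32 pairs, with host medians of -0.02 over 26 hosts. Small Cajal body RNAs lay above their host in 14 of 16 pairs, with a host median of 0.02 over 14 hosts. SNHG1 hosts SNORD22, SNORD26 and SNORD27. Its own difference was 0.17 ± 0.32 (implied standard error), against -0.18, -1.81 and -1.27 for the 3 RNAs. RPS12 hosts a C/D box and an H/ACA box RNA: SNORD101, of mean average log2 CPM 0.11, had a difference of -2.62 ± 1.57 and SNORA33 one of 0.78 ± 0.90, both within 2 implied standard errors of 0, with RPS12 at 0.05 ± 0.27. CHD3, which encodes a chromatin remodeller, stood at a difference of 0.00 and its intronic SCARNA21 at 1.32. Some RNAs have more than 1 host, so pairs are not separate measurements, and host reads can enter the small RNA's row.

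Spliceosomal small nuclear RNAs, which base-pair with introns or with each other during splicing, tended the same way as C/D box RNAs, while U1 rows lay on both sides of 0. The 5 U2 rows (median -1.70), 2 U4 rows (-0.91), 8 U5 rows (-0.41), 9 U6 rows (-0.96) and 4 rows of the minor spliceosome (-0.72) held 1 row with a difference above 0, the low-abundance RNU6-146P. Most of these differences were within 2 implied standard errors. RNU4-2 stood at 3.79 for ALKBH5 and at 4.77 for RBM33 per the authors' deposited tables, a difference of -0.98 ± 0.59 (implied standard error). RNU5B-1 stood at 2.51 and 3.95 in the authors' deposited tables, a difference of -1.44 ± 0.61, and RNU2-2P at 0.70 and 1.36, a difference of -0.65 ± 0.37. The 21 U1 rows had a median of 0.31, and of 0.11 with scaled RBM33 values. Of them 12 lay above 0 and 9 below, and 3 lay at or below -1. On the positive side 0 U1 rows reached 2 implied standard errors and on the negative side 1, against 6.49% and 2.99% of all genes. RNU1-1 stood at 3.80 and 3.07 in the authors' deposited tables, a difference of 0.73 ± 0.66. U1 rows of the abundant copies share near-identical values. A further 12 rows carry only the name U2 and are not in the U2 family above. Their differences ran from -0.88 to -0.10, closer to 0 than the family's median, and all were within 2 implied standard errors. The family's median rests on the scarce RNU2-36P, RNU2-63P and RNU2-6P (-1.80, -3.10 and -1.70, at mean average log2 CPM of 0.62, 0.83 and 2.07), while the abundant RNU2-1 had -0.38 ± 0.46.

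Other abundant noncoding RNAs differed by kind. RPPH1, the RNA of RNase P that trims tRNA precursors, stood at 1.17 (edgeR, adjusted p = 0.00283) for ALKBH5 and at -0.05 (adjusted p = 0.867) for RBM33 in the authors' deposited tables, a difference of 1.22 ± 0.36 (implied standard error). RMRP, the related RNA of RNase MRP, stood at 2.48 and 2.02 in the authors' deposited tables, a difference of 0.46 ± 0.35. RN7SK, which holds back the elongation kinase P-TEFb, had a difference of 0.68 ± 0.38, TERC, the template RNA of telomerase, one of 0.77 ± 0.57, and RN7SL1, an RNA of the signal recognition particle, one of 0.52 ± 0.60. The named Y RNA genes and a vault RNA lay on the other side, with differences of -1.12 ± 0.52 for RNY3, -0.86 ± 0.42 for RNY4, -0.68 ± 0.37 for RNY1 and -0.73 ± 0.48 for VTRNA1-1. Rows named only Y_RNA lay on both sides of 0, from -1.58 ± 0.58 to 1.67 ± 1.42. VTRNA1-3 had 0.47 ± 0.52.

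The shorter of these RNAs had the lower differences. Among 283 rows of small structured RNAs under 500 bases, 265 remained when rows with the same values to 2 decimals were counted once. The median difference was -0.53 for the 53 listed with under 100 bases, -0.34 for the 113 from 100 to under 150, -0.33 for the 57 from 150 to under 200 and 0.47 for the 42 from 200 to under 500, of which 32 lay above 0. Without the rRNA rows the medians of the first 3 ranges were -0.44, -0.17 and -0.22. Kind and length go together here: rRNA and rRNA pseudogene rows were listed with 44 to 153 bases, mitochondrial tRNAs with 59 to 75, C/D box RNAs with 64 to 237, H/ACA box RNAs with 122 to 272 and small Cajal body RNAs with 125 to 420. Within a kind Spearman's rank correlation between length and difference was 0.24 for C/D box RNAs (n = 28), 0.26 for H/ACA box RNAs (n = 49), 0.25 for small Cajal body RNAs (n = 14) and 0.21 for small nuclear RNAs (n = 59), across genes of the same libraries. It was 0.26 for misc RNA (n = 56), 0.07 for rRNA rows (n = 32), 0.09 for mitochondrial tRNAs (n = 22) and -0.36 for other small nucleolar RNAs (n = 5). Lengths and ranges were chosen after the values had been seen. Whether RNA fragmentation or library size selection differed between the baits' libraries was not tested.

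**Figure D3:**
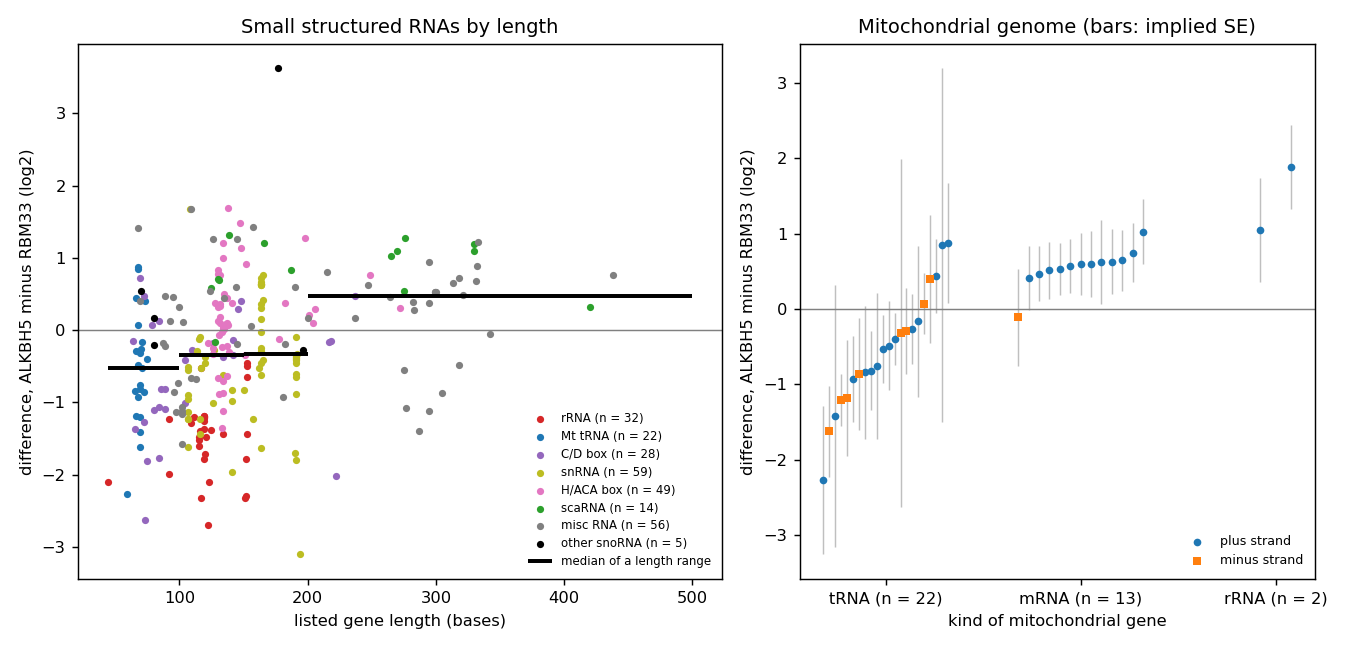
Left, the log2 difference (ALKBH5 table minus RBM33 table) of 265 small structured RNAs against listed gene length in bases, with black lines for the median of each length range. Right, the same difference for the 37 mitochondrial genes by kind, with the implied standard error as bars and the strand by colour. The 42 RNAs of 200 bases or more have a median of 0.47, and the mitochondrial tRNAs lie mostly below 0 and the mRNAs and rRNAs mostly above it.

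The mitochondrial genome split by kind of RNA. Its long transcripts are cut at the tRNAs into mRNAs, rRNAs and tRNAs. The 13 mitochondrial mRNAs, which encode subunits of the respiratory chain and ATP synthase, had a median difference of 0.60 (quartiles 0.51 and 0.63), and 12 lay above 0. In the authors' deposited tables their median log2 fold changes were -1.74 for ALKBH5 and -2.43 for RBM33, so both were negative and RBM33 the more so. MT-ATP8 stood at -2.15 and -3.18 in the authors' deposited tables, a difference of 1.03 ± 0.43 (implied standard error). It alone of the 13 reached 2 implied standard errors, which 9.48% of all genes reached in either direction. MT-CO1 stood at -2.17 and -2.76 in the authors' deposited tables, a difference of 0.60 ± 0.44. MT-ND6, the mRNA read from the other strand, had -0.11 ± 0.65. Both mitochondrial rRNAs lay higher still. MT-RNR1, of the small ribosomal subunit, stood at -0.83 (edgeR, adjusted p = 0.066) for ALKBH5 and at -2.72 (adjusted p = 0.000288) for RBM33 in the authors' deposited tables, a difference of 1.89 ± 0.56. MT-RNR2 stood at -2.88 and -3.93, a difference of 1.05 ± 0.68. The tRNAs lay on the other side on both strands, with medians of -0.51 over 14 and -0.59 over 8. MT-TE, the glutamate tRNA, stood at -1.13 and 0.07 in the authors' deposited tables, a difference of -1.20 ± 0.35, and MT-TS2, a serine tRNA, had -2.27 ± 0.99. The nuclear-encoded mRNAs of oxidative phosphorylation lay nearer 0: their median over 79 genes was 0.11, against 0.05 over all protein-coding genes. Of them 54 (68.4%) lay above 0, against 55% of protein-coding genes. Their median was 0.13 relative to protein-coding genes of like length and abundance and 0.21 with scaled RBM33 values.

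Long noncoding RNAs had medians above 0 in every window of abundance. In windows of mean average log2 CPM under 1, 1 to 2, 2 to 3, 3 to 4 and 4 and over, their medians were 0.29, 0.39, 0.47, 0.40 and 0.30, and those of protein-coding genes 0.11, 0.18, 0.15, 0.14 and 0.02. Processed pseudogenes had medians between -0.31 and -0.21 in the same windows. By symbol, 156 long intergenic RNAs had a median of 0.53, with 119 above 0, where 56% of all genes lay. Of them 29 reached 2 implied standard errors on the positive side and 0 on the negative side, against 6.49% and 2.99% of all genes. The 312 antisense RNAs had a median of 0.47, with 225 above 0, and the 61 divergent promoter transcripts 0.40, with 44 above 0. The 27 host transcripts of small nucleolar RNAs had a median of 0.34, with 24 above 0. SLFNL1-AS1 (chromosome 1, 41014590 to 41043890) stood at 8.46 (edgeR, adjusted p = 3.52e-08) for ALKBH5 and at 5.23 (adjusted p = 0.000111) for RBM33 in the authors' deposited tables, a difference of 3.23 ± 0.87 (implied standard error). It overlaps SCMH1 on the other strand. LINC00624, which overlaps CHD1L on the other strand, stood at 2.44 and -0.77 in the authors' deposited tables, a difference of 3.22 ± 0.74, and LINC00937 at 4.87 and 2.02, a difference of 2.85 ± 0.75. Among lower values, PAN3-AS1 stood at 1.64 and 3.51 in the authors' deposited tables, a difference of -1.87 ± 0.93.

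A list of well-known nuclear long noncoding RNAs had a median close to that of all long noncoding RNAs. Of 12 with a row, 11 had a difference above 0 and the median was 0.35, against 0.36 over all 1671. NEAT1, the scaffold of paraspeckles, stood at 5.10 for ALKBH5 and 5.06 for RBM33 per the authors' deposited tables, a difference of 0.04 ± 0.59 (implied standard error). MALAT1, an RNA of nuclear speckles, had a difference of 0.46 ± 0.68 and KCNQ1OT1, which silences an imprinted cluster, 0.58 ± 0.64. PVT1, transcribed beside MYC, had 0.67 ± 0.25 and OIP5-AS1 0.51 ± 0.20. Of the 12, these 2 reached 2 implied standard errors on the positive side. Among all 1671 long noncoding RNAs 186 did, against 6.49% of all genes.

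**Figure D4:**
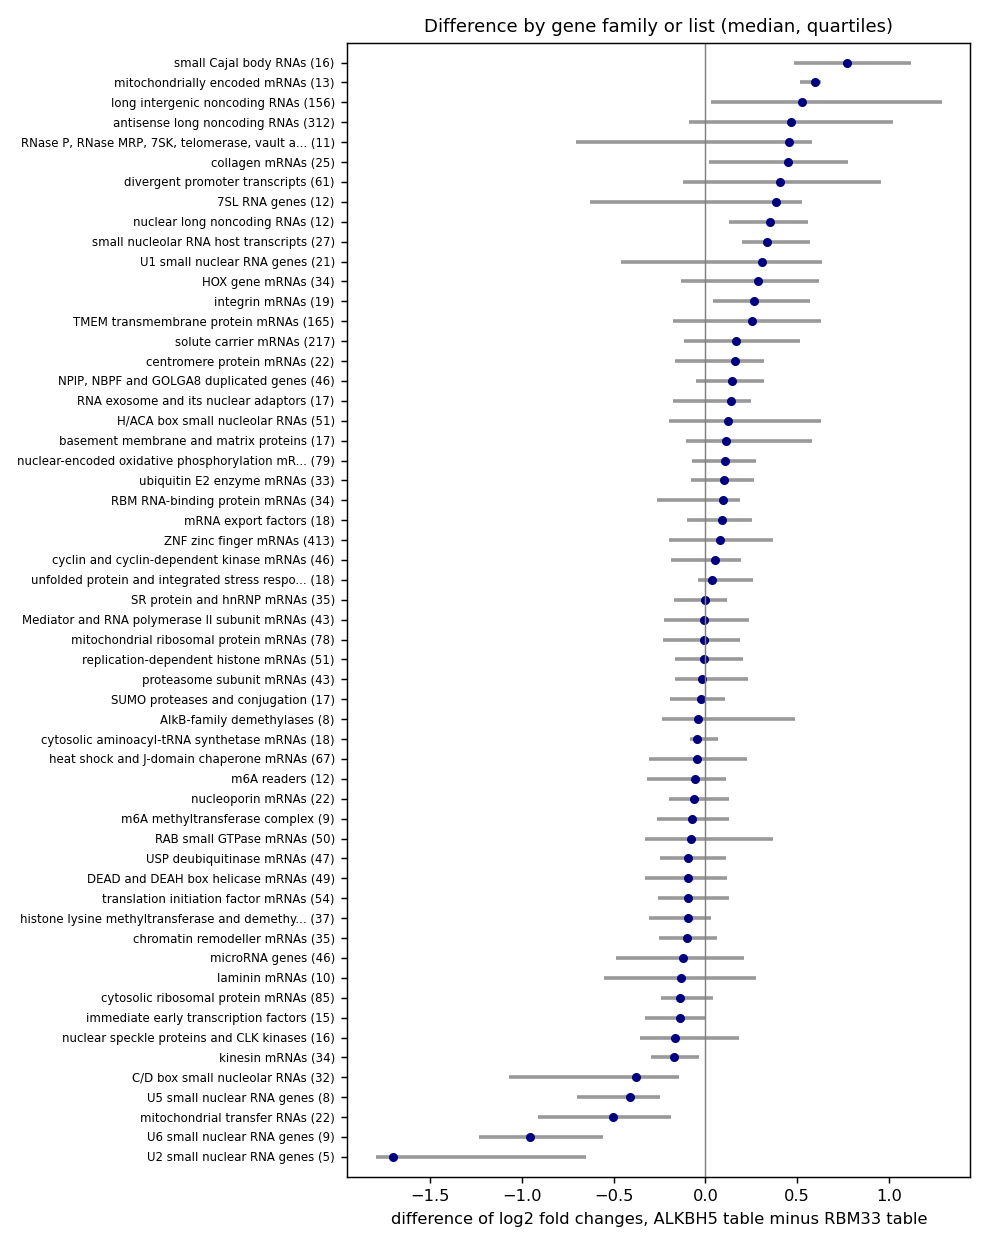
Points give the median log2 difference (ALKBH5 table minus RBM33 table) and bars the quartiles for each gene family or list with at least 5 genes, whose number is in brackets. Small Cajal body RNAs and mitochondrial mRNAs have the highest medians and U2 (5 rows, mostly scarce copies) and U6 genes the lowest, and most families of nuclear-encoded mRNAs lie within 0.2 of 0.

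Families of mRNAs lay close together. Of 25 collagen mRNAs, which encode fibrillar and basement membrane chains, 19 had a difference above 0 (median 0.45), and 6 reached 2 implied standard errors on the positive side and 0 on the negative, against 6.49% and 2.99% of all genes. COL5A2 stood at 3.19 for ALKBH5 and 1.81 for RBM33 per the authors' deposited tables, a difference of 1.38 ± 0.48 (implied standard error), and COL4A2 at 1.25 and 0.54, a difference of 0.72 ± 0.23. Laminin mRNAs, of the same matrix, did not go with them. Their median over 10 genes was -0.13, and 0.11 among genes of average log2 CPM of at least 3 in both tables. LAMC3 had a difference of -0.76 ± 0.28 and LAMA3 of 0.69 ± 0.31. Integrin mRNAs had a median of 0.26 over 19 genes, with 15 above 0, TMEM membrane protein mRNAs 0.26 over 165, with 101 above 0, and solute carrier mRNAs 0.17 over 217, with 145 above 0. In a pass over 164 symbol stems with at least 10 genes, collagens were among the 4 highest medians. Cytosolic ribosomal protein mRNAs had a median of -0.14 over 85 genes, with 26 above 0, and of -0.044 with scaled RBM33 values. RPL7 stood at -2.11 and -1.34 in the authors' deposited tables, a difference of -0.78 ± 0.23. Replication-dependent histone mRNAs had a median of -0.01 over 51 genes, which turned to 0.10 with scaled RBM33 values. Kinesin mRNAs had a median of -0.17 over 34 genes, with 8 above 0, and KIF14, a kinesin of cytokinesis, one of -0.54 ± 0.21. ZNF zinc finger mRNAs, 413 genes, had a median of 0.08, which was 0.033 with the protein-coding median subtracted and 0.011 relative to protein-coding genes of like length and abundance.

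The genes of the m6A pathway are given in full. Of 9 mRNAs of the methyltransferase complex, 3 had a difference above 0 and 0 reached 2 implied standard errors, which 9.48% of all genes reached in either direction, so a list of this size says little. METTL3, the catalytic subunit, stood at 1.18 for ALKBH5 and 0.95 for RBM33 per the authors' deposited tables, a difference of 0.23 ± 0.26 (implied standard error). The differences of the others were 0.21 ± 0.34 for its partner METTL14, 0.13 ± 0.23 for RBM15, -0.03 ± 0.19 for WTAP, -0.08 ± 0.21 for the separate writer METTL16, -0.17 ± 0.22 for ZC3H13, -0.27 ± 0.22 for CBLL1, -0.27 ± 0.22 for RBM15B and -0.34 ± 0.20 for VIRMA. Among 12 readers the differences ran from -0.60 ± 0.65 for YTHDF1 to 0.40 ± 0.20 for YTHDC2, a helicase-type reader, and 4 lay above 0. YTHDF2, known for directing methylated mRNA to decay, had -0.04 ± 0.18, YTHDF3 0.13 ± 0.25, the nuclear reader YTHDC1 -0.31 ± 0.21, and IGF2BP1, IGF2BP2 and IGF2BP3 -0.35 ± 0.20, 0.13 ± 0.18 and -0.02 ± 0.21. The remaining readers were PRRC2A at -0.35 ± 0.22, HNRNPC at -0.12 ± 0.22, FMR1 at -0.08 ± 0.19 and HNRNPA2B1 at 0.10 ± 0.23. Of 8 AlkB-family mRNAs other than ALKBH5, 4 lay above 0. FTO, the other m6A eraser, had a difference of -0.22 ± 0.21. The rest were ALKBH1 at 0.61 ± 0.44, ALKBH2 at -0.27 ± 0.22, ALKBH3 at 0.07 ± 0.20, ALKBH4 at 0.45 ± 0.48, ALKBH6 at 0.89 ± 0.63, ALKBH7 at -0.81 ± 0.67 and ALKBH8 at -0.16 ± 0.23.

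Single mRNAs were ranked by the difference itself, so the width of those named is no separate evidence. Among protein-coding genes of mean average log2 CPM of at least 3, called in at least 1 table and differing by at least 2 implied standard errors, there were 851, and the 12 at each end are named here. Wider differences lay outside this rule, such as 3.75 for a replication-dependent histone mRNA. Of the 851, LTB4R, a receptor of the inflammatory lipid leukotriene B4 (chromosome 14, 24311450 to 24318036), had the widest difference. It stood at 5.70 (edgeR, adjusted p = 2.65e-08) for ALKBH5 and at 2.94 (adjusted p = 0.000732) for RBM33 in the authors' deposited tables, a difference of 2.77 ± 0.62 (implied standard error). LTB4R2, which overlaps it on the same strand, had 0.35 ± 0.52. Of the other members of that end, TMEM234 (1.75 ± 0.41), TMEM218 (1.66 ± 0.43) and TMEM80 (1.65 ± 0.39) encode transmembrane proteins. SEC31B, of the outer coat of COPII vesicles, had a difference of 1.62 ± 0.45 and GNPTG, a subunit of the enzyme that tags lysosomal proteins with mannose 6-phosphate, 1.56 ± 0.41. METTL23, a protein methyltransferase, stood at 0.73 (edgeR, adjusted p = 0.0196) for ALKBH5 and at -0.79 (adjusted p = 0.065) for RBM33 in the authors' deposited tables, a difference of 1.52 ± 0.41. GRTP1 (1.67 ± 0.49), RNF207 (1.58 ± 0.38), C4orf48 (1.56 ± 0.54), LRRC14 (1.56 ± 0.33) and PRELID3A (1.51 ± 0.45) complete that end. TMEM234, TMEM80, GNPTG, RNF207 and LRRC14 overlap another gene on the other strand, and SEC31B and METTL23 a clone-named gene on their own.

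The opposite end held HSPA1A and HSPA1B, which encode inducible heat shock proteins. HSPA1A (chromosome 6, 31815543 to 31817946) stood at -0.02 (edgeR, adjusted p = 0.919) for ALKBH5 and at 1.33 (adjusted p = 0.000174) for RBM33 in the authors' deposited tables, a difference of -1.35 ± 0.27 (implied standard error). HSPA1B, its near-identical neighbour, had -1.16 ± 0.26, and reads of the 2 genes cannot be told apart with ease, so they count as 1 observation. The family of 67 heat shock and J-domain chaperone mRNAs had a median of -0.05, with 29 above 0. Of the 67, 8 reached 2 implied standard errors on the negative side, HSPA1A and HSPA1B among them, against 2.99% of all genes. On the positive side 2 did, such as DNAJB2 at 0.93 ± 0.29, against 6.49% of all genes. CDKN1A, the cell cycle inhibitor p21, stood at -0.31 (edgeR, adjusted p = 0.322) and 0.88 (adjusted p = 0.0222) in the authors' deposited tables for ALKBH5 and RBM33, a difference of -1.19 ± 0.38. VDR, the vitamin D receptor, had -1.12 ± 0.37, and MAD2L1BP, which silences the spindle checkpoint, -1.18 ± 0.38. SYF2, a spliceosome protein, stood at -2.53 and -1.35 in the authors' deposited tables, a difference of -1.18 ± 0.24. ZNF613 (-1.42 ± 0.41), KIAA1549L (-1.22 ± 0.42), NCKAP5L (-1.20 ± 0.41), PPP1R16A (-1.14 ± 0.34), H1-6 (-1.12 ± 0.44) and RMC1 (-1.07 ± 0.37) complete that end. NCKAP5L, PPP1R16A, VDR and RMC1 overlap another gene on the other strand. Immediate early transcription factor mRNAs had 4 of 15 members with a row above 0 and a median of -0.14. Those of the unfolded protein and integrated stress response had 12 of 18 above 0 and a median of 0.04. Among immediate early factors, single members went both ways. FOSB stood at 2.39 and 3.99 in the authors' deposited tables, a difference of -1.60 ± 0.72, and EGR1 at 2.37 and 3.54, a difference of -1.17 ± 0.67, while KLF4, of low abundance, had 2.55 ± 1.06.

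**Figure D5:**
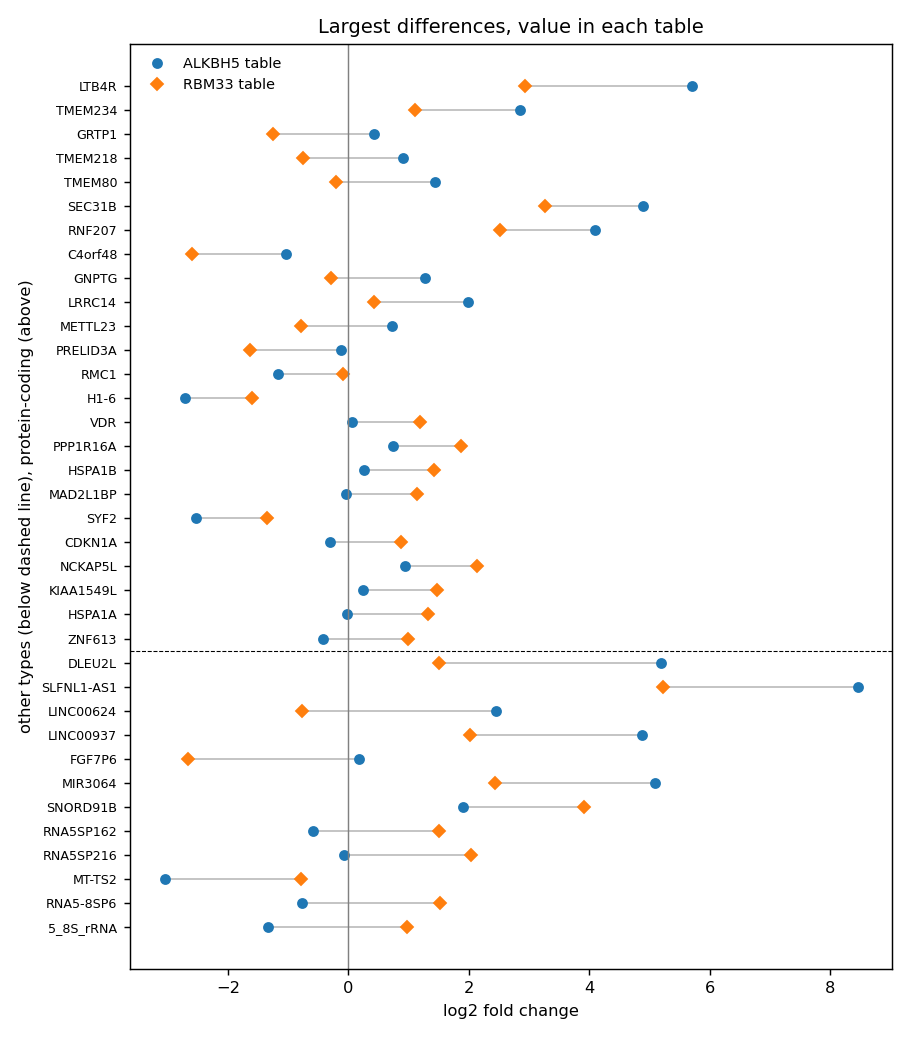
Log2 fold change in the ALKBH5 table (circles) and in the RBM33 table (diamonds) for the genes at each end of the ranking, 12 at each end for protein-coding genes above the dashed line and 6 at each end for other types below it. Genes shown passed the filters on abundance, call and implied standard error. Among the protein-coding genes shown LTB4R has the widest gap, at 5.70 against 2.94.

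Among protein-coding genes, listed length went with the values of either table more than with the difference. Over 13208 protein-coding genes Spearman's rank correlation of listed gene length was 0.41 with the ALKBH5 values and 0.45 with the RBM33 values in the authors' deposited tables, and -0.06 with the difference, across genes of the same libraries. The shortest of 10 equal bins (51 to 2089 bases) had a median difference of 0.08 and the longest (11188 to 55886 bases) one of 0.00. The same rank correlation of abundance with the difference was -0.15. The median difference was 0.13 in the least abundant of 10 bins and -0.07 in the most abundant, where 510 of 1321 genes lay above 0. Scatter rose as abundance dropped: the standard deviation of the difference was 0.25 in the most abundant bin and 1.20 in the least, where the median implied standard error was 0.99. The widest differences of all, 6.73 for TTPA and -7.13 for H2BC8, belong to genes of mean average log2 CPM of 0.00 and 0.69, with implied standard errors of 2.05 and 2.57.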

How the data were processed

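The submitters' processing notes name hg38, edgeR 3.24.3, Subread 1.6.4 with featureCounts, HISAT2 2.1.0 and cutadapt 1.18. Strand setting, annotation release and low-count filter: not given in the sources used here. Overlapping genes may therefore share reads. Each deposited table holds, per gene, the authors' log2 fold change, log2 CPM averaged over libraries, F statistic (a score without fixed range), p-value and adjusted p-value, with length and position. They hold no value per library. No count model could be fitted. Differences, implied standard errors, medians and counts were computed with pandas 2.3.3 on Python 3.11.15, tested on simulated data.

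The members, 48 families and 15 lists were chosen with earlier results of these data known. Named by rule were the 12 protein-coding genes at each end by difference (mean average log2 CPM at least 3, adjusted p under 0.05 in at least 1 table, at least 2 implied standard errors), 6 at each end of other types (at least 1), up to 5 in each direction among oppositely called genes (at least 3), up to 3 at each end of each type, family or list (at least 1), and every member of the m6A and AlkB lists. Small RNAs with hosts, microRNA neighbours, mitochondrial genes, MIR4707, MIR4709, TTPA, H2BC8 and other single members (RPPH1, Y RNAs, U RNAs) were named after their values were seen. MicroRNA sequences are RefSeq's (GRCh38.p14).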

Additional observations from a re-analysis of the deposited data

How the results depend on the processing

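Requiring average log2 CPM of at least 3 in both tables left 162 genes with a difference of at least 1 and 62 of at most -1; requiring 2 implied standard errors left 486 and 166. Both filters test fewer genes or ask for more. Scaling the RBM33 values to the spread of the ALKBH5 table gave 1100 and 646, and subtracting the protein-coding median 1006 and 645. At an adjusted p under 0.01, 0 genes were called with opposite signs. Of 371 recomputed medians of types, families and length ranges, 345 stayed within the 95% interval of the reported median across genes, and the others moved outside it. The sign changed in 30 of them, for 21 medians, mostly ones near 0. Only that of H/ACA box RNAs (-0.088 with scaled RBM33 values) had an interval clear of 0 before; the cause was not tested. The median of transcribed processed pseudogenes was 0.081 at log2 CPM of at least 3, in place of -0.13. Among rows that overlap no other gene the median of misc RNA was -0.66 in place of 0.31. No paired analysis was possible because only fold changes per table were given, without library values. Leaving out each replicate and the replicate block were therefore not run. Low counts limit the scarce genes, as the standard errors show.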
